A study of Mus musculus with 4 samples.

Results

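The soleus (Sol) and the diaphragm (Dia) are the 2 oxidative muscles of a series that profiled open chromatin in 4 mouse muscles by ATAC-seq, which uses Tn5 transposase to cut and tag accessible DNA. The comparison used the 20000 highest-scored peaks of each muscle, out of 28784 peaks listed in Sol and 21582 in Dia, or 69.5% and 92.7% of these lists. The 4 lists of the series together hold 120839 peaks, and the fast extensor digitorum longus (EDL) and quadriceps (Quad) served only as a reference. The mice were sedentary wild-type C57BL/6 animals (males of the C57BL/6J substrain in the study's methods), and neither treatment nor transgene separated the groups. Each muscle was represented by 1 library described as pooled, how many animals it joins is not given in the labels, and age is not analysed here. With 1 library per muscle there is no replicate check and no test between muscles. Every difference below describes these libraries, and the 95% intervals (Wilson for shares, Newcombe for differences of shares) cover counting error only.

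Muscle fibres are classed by their myosin. Slow fibres carry the heavy chain Myh7 with slow partners in the sarcomere and the calcium pump Atp2a2, contract with little fatigue and are frequent in the postural soleus. The mouse diaphragm contracts with every breath and is oxidative as well, but most of its fibres carry fast myosins. It is a flat muscle of the trunk that borders the liver and is lined by mesothelium, whereas the soleus is a muscle of the hindlimb.

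The 10 peaks printed here are examples described further below. They lie beside the gene that defines slow fibres, or are among the 10 highest 1-sided peaks or the 10 most shifted pairs of a muscle. Each is the plus strand of the mm10 assembly (GRCm38.p6), 5′ to 3′, read over the listed peak. Capitals mark any match to the 10 motifs searched, which are described with the motif counts. For Sol, the sequences are both peaks upstream of Myh7 (chr14:55003840-55004046 and chr14:55004650-55004856, intergenic, 9317 bp and 10127 bp upstream of the start) and 3 of the 10 highest peaks with no Dia peak within 1 kb. These 3 lie in intron 1 of Fhl3 (chr4:124703566-124703772), a LIM-domain protein, in intron 3 of Alpk3 (chr7:81074621-81074827), an alpha kinase of striated muscle, and 19680 bp upstream of the non-coding RNA Malat1 (chr19:5822249-5822455). The sixth Sol sequence lies in the region that ranked higher in Sol by the largest margin, 38362 bp upstream of Smyd2 (chr1:189960550-189960756), a protein methyltransferase.
Sol, Myh7, nearer peak: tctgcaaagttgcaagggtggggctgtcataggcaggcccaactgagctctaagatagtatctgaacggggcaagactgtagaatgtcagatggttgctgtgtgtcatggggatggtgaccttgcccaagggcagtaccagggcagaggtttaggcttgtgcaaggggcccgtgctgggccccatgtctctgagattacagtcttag
Sol, Myh7, farther peak: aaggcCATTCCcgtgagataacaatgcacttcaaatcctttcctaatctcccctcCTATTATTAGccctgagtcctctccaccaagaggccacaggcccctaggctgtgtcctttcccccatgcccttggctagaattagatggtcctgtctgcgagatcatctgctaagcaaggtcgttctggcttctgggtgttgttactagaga
Sol, Fhl3: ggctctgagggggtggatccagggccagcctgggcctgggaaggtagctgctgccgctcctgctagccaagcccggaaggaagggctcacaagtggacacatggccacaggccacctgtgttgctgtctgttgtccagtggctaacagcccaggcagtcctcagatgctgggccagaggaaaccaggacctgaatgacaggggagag
Sol, Alpk3: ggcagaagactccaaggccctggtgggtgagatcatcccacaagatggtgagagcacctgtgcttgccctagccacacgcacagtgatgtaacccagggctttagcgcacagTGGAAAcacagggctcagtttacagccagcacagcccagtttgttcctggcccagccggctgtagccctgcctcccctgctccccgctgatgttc
Sol, Malat1: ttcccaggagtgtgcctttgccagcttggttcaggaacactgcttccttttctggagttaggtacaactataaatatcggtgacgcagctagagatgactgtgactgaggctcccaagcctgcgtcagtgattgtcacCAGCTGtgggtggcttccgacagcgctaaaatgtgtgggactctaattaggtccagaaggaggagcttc
Sol, Smyd2: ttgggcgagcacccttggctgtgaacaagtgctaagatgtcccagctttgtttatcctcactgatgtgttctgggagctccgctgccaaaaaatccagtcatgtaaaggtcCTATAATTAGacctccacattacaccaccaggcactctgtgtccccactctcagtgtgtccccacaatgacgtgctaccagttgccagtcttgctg

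For Dia, the sequences are 1 of the 10 highest peaks with no Sol peak within 1 kb and 3 non-promoter peaks that ranked far higher in Dia. The first lies 1869 bp upstream of a start of Lpin1, in intron 1 of a longer transcript (chr12:16591523-16591755). Lpin1 encodes a phosphatidate phosphatase of lipid metabolism. The other 3 are named by their nearest gene, 1700016G22Rik (chr13:5604313-5604545, intergenic, 253663 bp downstream), the transcription factor Etv3 (chr3:87566219-87566451, intergenic, 40757 bp downstream) and the interferon Ifnk (chr4:35099994-35100226, 51945 bp upstream, within an intron of a neighbouring gene).
Dia, Lpin1: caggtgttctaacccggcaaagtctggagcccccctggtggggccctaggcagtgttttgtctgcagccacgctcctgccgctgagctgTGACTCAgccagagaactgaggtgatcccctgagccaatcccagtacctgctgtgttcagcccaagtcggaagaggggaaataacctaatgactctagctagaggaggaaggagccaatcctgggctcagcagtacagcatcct
Dia, 1700016G22Rik: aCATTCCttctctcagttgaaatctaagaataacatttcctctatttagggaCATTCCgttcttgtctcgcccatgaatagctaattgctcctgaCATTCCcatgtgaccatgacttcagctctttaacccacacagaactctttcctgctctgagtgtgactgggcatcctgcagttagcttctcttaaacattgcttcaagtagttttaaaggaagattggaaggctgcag
Dia, Etv3: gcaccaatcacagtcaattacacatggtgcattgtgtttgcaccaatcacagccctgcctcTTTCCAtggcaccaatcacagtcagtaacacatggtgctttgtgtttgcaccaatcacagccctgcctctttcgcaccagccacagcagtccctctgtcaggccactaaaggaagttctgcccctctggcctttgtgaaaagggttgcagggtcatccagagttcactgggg
Dia, Ifnk: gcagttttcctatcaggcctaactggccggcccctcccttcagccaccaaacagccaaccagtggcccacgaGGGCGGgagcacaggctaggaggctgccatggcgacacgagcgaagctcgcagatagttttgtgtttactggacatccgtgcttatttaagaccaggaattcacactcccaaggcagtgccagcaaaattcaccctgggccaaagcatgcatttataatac

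The Myh7 peak farther from the start and the Smyd2 peak each held 1 match to the MEF2 site, an A/T-rich sequence bound by MEF2 factors in muscle. The farther Myh7 peak also held a TEAD match, the Alpk3 peak an NFAT match and the Malat1 peak an E-box. The nearer Myh7 peak and the Fhl3 peak held none of the 10 motifs. Among the Dia sequences, Lpin1 held an AP-1 match, 1700016G22Rik 3 TEAD matches, Etv3 an NFAT match and Ifnk a GC box. A match is a run of letters and does not show that a factor was bound.

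The score of a peak is the authors' tag count, scaled by library size, so peaks were ranked within each list and compared as percentiles, with 100 for the highest score. If scores are scaled to 10 M tags (M, mega), the steps between them gave a depth of 105 M tags for Sol and 99.3 M for Dia. The median peak of the 20000 then held 94 tags in Sol and 78 in Dia. The last peak inside each list held 58 tags in Sol (score 5.54) and 45 in Dia (score 4.53), and the first peak outside had the same score. Counting error alone spread a peak at percentile 50 over 30.2 to 66.6 in Sol and 29.6 to 65.3 in Dia, and a peak at percentile 75 over 62.5 to 84.1 and 63.2 to 83.5. Low-ranked peaks are therefore placed less firmly than high-ranked ones. Of the 15 skeletal muscle marker genes checked, all had a peak in Sol and 13 had one in Dia, where Myod1 and Cav3 had none. None of 7 cardiomyocyte markers had a peak in either list.

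Most regions were open in both muscles. In total, 14083 of 20000 peaks (70.4%, 69.8% to 71.0%) overlapped a peak of the other list by at least 1 bp. Sharing fell with rank, from 93.9% of the 5000 highest Sol peaks to 44.4% of the 5000 lowest, and from 96.5% to 33.5% in Dia. The 5917 peaks of each muscle without a partner were mostly low in their lists, with a median percentile of 26.6 in Sol and 22.4 in Dia. Part of this depends on where the lists end: 1791 of the 5917 Dia peaks (30.3%) overlapped a Sol peak ranked below the first 20000, against 225 of the Sol peaks (3.80%). A stricter set was therefore used as well, of peaks with no peak of the other muscle's whole list within 1 kb. It held 4615 Sol peaks and 3188 Dia peaks.

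The regions open in 1 muscle lay in different parts of genes. Promoters made up 53.1% of the shared Sol peaks but 14.2% of the peaks found in Sol without a Dia partner (13.3% to 15.1%) and 22.1% of the Dia peaks without a Sol partner (21.0% to 23.1%). The difference was -7.84 percentage points for Sol minus Dia (-9.22 to -6.46). Intragenic peaks made up 51.9% of the Sol set and 42.2% of the Dia set, and intergenic peaks 33.9% and 35.8%. In the stricter sets the promoter share was 8.88% in Sol and 15.7% in Dia, so Dia retained the larger promoter share.

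Regions found in Sol but not in Dia were more often listed in the hindlimb muscles EDL and Quad than regions found in Dia but not in Sol. Of the 1-sided peaks, those without a partner, 78.5% in Sol and 65.8% in Dia were also listed in EDL or Quad. The difference was 12.7 points (11.1 to 14.3). Of the strictly 1-sided peaks, the shares were 77.6% in Sol (76.3% to 78.8%) and 52.6% in Dia (50.9% to 54.4%). Here the difference was 24.9 points (22.8 to 27.0). The strict rule is not equal on both sides, since it screened Dia peaks against 28784 Sol peaks and Sol peaks against 21582 Dia peaks. Among promoters of these sets the shares were 87.3% in Sol and 68.1% in Dia, and outside promoters 76.6% and 49.7%. The order was not seen with the 10000 highest peaks of each list. There 90.9% of the 1-sided Sol peaks and 93.2% of the 1-sided Dia peaks were listed in EDL or Quad. Promoters made up 20.1% of these Sol peaks and 57.4% of these Dia peaks. The parts of rank and promoter share in this change were not tested. In all, 1510 strict Dia peaks and 1035 strict Sol peaks were listed in neither of the other muscles. Regions shared by Sol and Dia were listed in EDL or Quad in 97.3% of cases. The lists of the 4 muscles differ in length, with 30136 peaks in EDL and 40337 in Quad, and the position of Dia as the only trunk muscle cannot be told apart from its fibre composition.

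**Figure D1:**
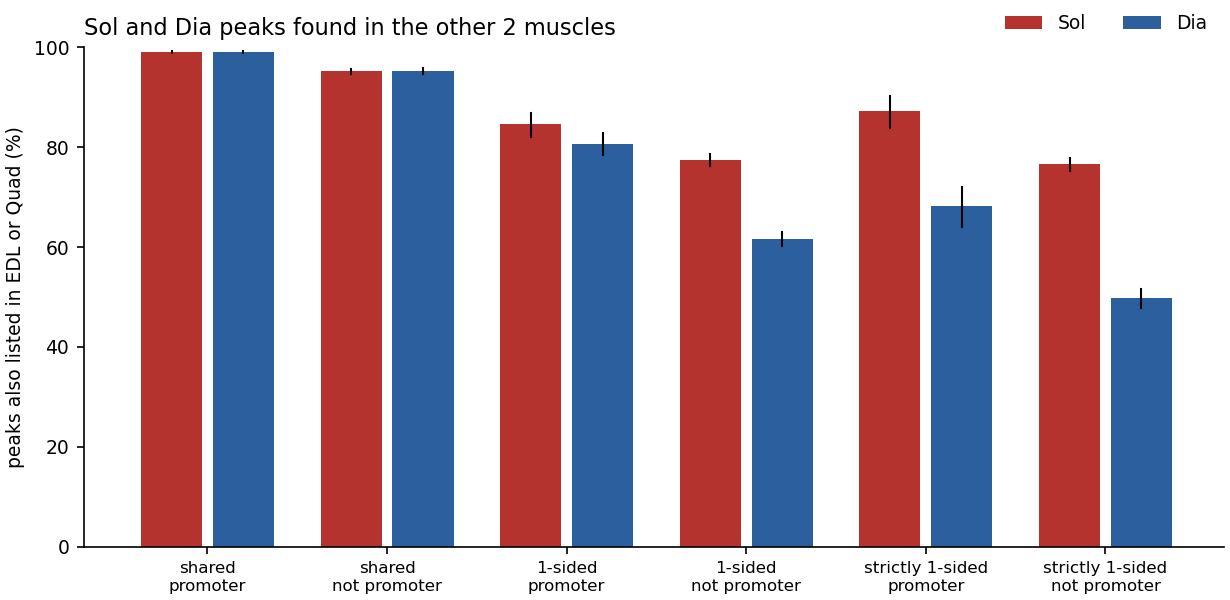
Share of Sol and Dia peaks (%, vertical axis, bars from 0, with 95% Wilson intervals) that were also listed in EDL or Quad, for shared, 1-sided and strictly 1-sided peaks at and outside promoters. The Sol bar stands above the Dia bar in the strict sets, at 87.3% against 68.1% for promoters and 76.6% against 49.7% outside them, and shared peaks reach over 95% in both.

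At the 14083 shared pairs, percentiles ran together, with a Spearman correlation of 0.829 across pairs. The points share 2 libraries and are not replicates. The median difference, Sol minus Dia, was -1.14 points, and the middle of the distribution lay between -11.3 and 5.65. A difference of at least 20 points was found for 1243 pairs higher in Sol (8.83% of pairs) and 1945 higher in Dia (13.8%). The balance depends on the scale: with percentiles taken within each whole list, which is longer in Sol, 2600 pairs were higher in Sol and 269 in Dia. The counting intervals of both peaks stayed apart in 403 of the 1243 pairs (32.4%) and in 441 of the 1945 (22.7%).

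Promoters and other regions moved differently on this scale. Among 7475 promoter pairs, 135 (1.81%) were higher in Sol and 1064 (14.2%) in Dia, with a median difference of -2.31 points. Among 3746 intragenic pairs, 16.4% were higher in Sol and 13.6% in Dia, and among 2862 intergenic pairs 17.2% and 13.0%. The excess of Dia-high pairs was thus found at promoters, whereas outside promoters more pairs were higher in Sol.

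**Figure D2:**
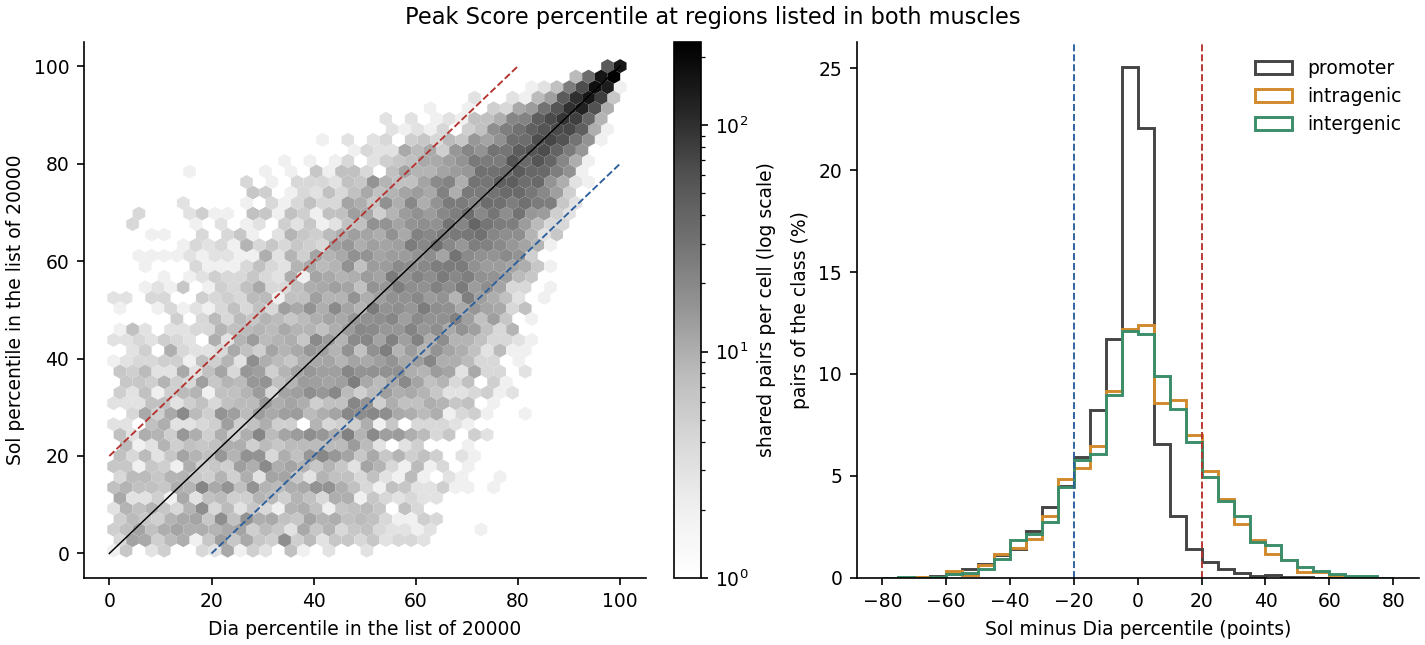
Percentile of each shared pair in the list of 20000, Sol against Dia (left, colour gives pairs per cell on a log scale), and the distribution of the Sol minus Dia difference in points for promoter, intragenic and intergenic pairs (right, % of the class). Promoter pairs form the narrow distribution with a tail towards Dia, while 16.4% of intragenic and 17.2% of intergenic pairs lie at least 20 points towards Sol.

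The region near Smyd2 stood at percentile 84.8 in Sol (157 tags) and 10.1 in Dia (50 tags), a difference of 74.6 points, and at 88.4 in EDL and 77.3 in Quad. Its Dia value was therefore apart from the other 3 muscles, and its sequence, printed above, holds a MEF2 match. A region in an intron assigned to 4933411K16Rik stood at 89.6 in Sol and 15.5 in Dia, but at 35.2 in EDL and 8.24 in Quad, so that here Sol was apart. The next 8 pairs towards Sol were assigned to Gm7607, Prx, Tkt, Zbtb44, Mir6417, Trib2, Asb5 and Mtcl1, with differences between 64.3 and 73.0 points. All 10 lay outside promoters. Those of Trib2, a pseudokinase, and Asb5, a muscle-expressed ubiquitin ligase adaptor, had no partner among the 20000 highest peaks of EDL or Quad.

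Towards Dia, the region near 1700016G22Rik stood at percentile 0.58 in Sol (58 tags) and 72.6 in Dia (110 tags). A promoter of Dapk1, a death-associated protein kinase, stood at 4.09 in Sol (60 tags) and 72.6 in Dia (110 tags), against 7.02 in EDL and 35.9 in Quad. The other 8 pairs were assigned to Aig1, Hist1h4d, Ifnk, Riok1, Actr10, Etv3, Epb41l4b and Zfp202, with differences of -69.98 to -60.9 points. Promoters accounted for 6 of these 10. The Aig1 promoter had no partner among the 20000 highest peaks of EDL or Quad, which leaves lower-ranked peaks there open.

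The shifted pairs were chosen for a high value in one muscle and a low value in the other, so the values of EDL and Quad tend to fall between them by that choice, and they are given as a description. Medians were taken over pairs with a peak among the 20000 highest of all 4 muscles. At the 870 Sol-high pairs of this kind, the median percentile was 66.3 in Sol, 58.4 in EDL, 52.3 in Quad and 33.8 in Dia. At the 1223 Dia-high pairs of this kind it was 62.1 in Dia, 46.2 in Quad, 43.5 in EDL and 30.8 in Sol.

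Counting peaks by the nearest annotated gene gave 13537 genes with a peak in either list, of which 7049 (52.1%) had equal numbers and 10586 had peaks in both. More peaks were assigned in Sol for 3067 genes (22.7%) and in Dia for 3421 (25.3%). At least 2 more peaks were assigned in Sol for 742 genes (5.48%) and in Dia for 552 (4.08%). These shares are the background for the gene groups below, and the median difference over all genes was 0 peaks. Equal list lengths hold the totals at 20000 each. With the whole lists instead, 6021 genes had more peaks in Sol and 2142 in Dia. Counts for EDL and Quad also come from their 20000 highest peaks. Peaks were assigned by distance, so a peak need not regulate the gene it is named for.

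Genes with the largest excess in Sol included 2010111I01Rik with 14 Sol peaks and 5 Dia peaks, the potassium channel Kcnma1 with 12 and 5, and the membrane repair protein dysferlin (Dysf) with 10 and 4. The glucocorticoid receptor Nr3c1 had 13 and 7, the cAMP phosphodiesterase Pde4b 11 and 5, the calmodulin-dependent kinase subunit Camk2b 7 and 2, and the lamin-interacting protein Mlip 9 and 4. For Actn2, the α-actinin of the Z disc, there were 6 Sol peaks and 1 Dia peak, with 2 in EDL and 0 in Quad. The other genes among the first 15 were 1700112H15Rik, Sec61b, Herc1, Gm20755, Sema6a, Galnt18 and A230009B12Rik, with 5 or 6 more peaks in Sol. At Kcnma1, 8 of the 12 Sol peaks had no Dia peak within 1 kb, and 7 of the first 15 genes had 6 or more such peaks.

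Genes with the largest excess in Dia were Tmcc3, with 9 Sol peaks and 16 Dia peaks, and the transcription factor Klf4, with 10 and 16. The Klf4 difference rested on the end of the Sol list, since the whole lists held 17 Sol peaks and 16 Dia peaks. Rbm47, an RNA-binding protein known from epithelia, had 0 Sol peaks and 5 Dia peaks, none of them listed in EDL or Quad. They included its promoter at percentile 30.3 (62 tags). Bche, which hydrolyses choline esters, had 0 and 4 peaks, and the whole Sol list held 2, both at Dia peaks. Hlf, a clock-controlled transcription factor, had 1 and 5 peaks. Its promoter peak stood at percentile 59.9 in Dia (90 tags) and overlapped a Sol peak of 54 tags, below the first 20000. The remaining genes were 1110034G24Rik, 4930459C07Rik, Htra3, Syde2, Dapk1, Wdr5, Dynlrb2, Spata13, Mir680-3 and Papss2, with 4 or 5 more peaks in Dia. For each of these and for Tmcc3 the whole lists, longer in Sol, kept the direction but narrowed the difference. They held 12 Sol and 16 Dia peaks at Tmcc3, for example, and 3 and 5 at Papss2.

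The highest strictly 1-sided Sol peak was assigned to Gm5458 (percentile 99.8, 371 tags), and its nearest Dia peak lay 1885 bp away. Promoters of Sphk2, a sphingosine kinase (percentile 95.8), and Midn (94.7) followed, both listed in EDL and Quad as well. The Fhl3 intron peak stood at percentile 90.2 (185 tags, counting interval 85.3 to 93.9) and was listed in no other muscle. The promoter of Mir1a-1hg, the host transcript of the muscle microRNA miR-1, stood at 88.3 and was also listed in EDL. The Alpk3 and Malat1 peaks stood at 88.1 and 87.9 and were both listed in EDL and Quad. The other peaks of the first 10 were assigned to 4930526I15Rik (93.0), Osbpl2 (90.4) and Josd1 (88.8).

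The highest strictly 1-sided Dia peak was assigned to Cirbp, a cold-inducible RNA-binding protein (percentile 92.6, 184 tags), with a Sol peak 2348 bp away. The Lpin1 peak stood at 85.8 (147 tags, counting interval 78.8 to 91.1) and was listed in no other muscle, and the nearest Sol peak lay 27170 bp away. Promoters of Caskin2 (87.7), Aida (87.5), Amigo3 (87.0), Mfsd3 (86.0), Tapbp (85.5), Tle3 (83.0) and Irf2bpl (81.6) and a peak in intron 1 of Ubtf (81.6) completed the first 10. Thus 7 of the 10 Dia peaks were promoters, against 4 of the 10 Sol peaks. The nearest Sol peak lay between 1545 and 5242 bp from these 7 promoters.

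Genes of the slow sarcomere had more open regions in Sol. Of 18 genes, 15 had a peak, 13 had more peaks in Sol (against 22.7% of all genes) and none had more in Dia, and their summed peaks were 43 in Sol, 18 in Dia, 21 in EDL and 20 in Quad. Sol thus held 70.5% of the Sol and Dia peaks (58.1% to 80.4%), where the whole lists give equal parts, and the median difference was 1 peak per gene against 0 over all genes. Of the 43 Sol peaks, 24 had no Dia peak within 1 kb, against 23.1% of all Sol peaks. Of the 18 Dia peaks, 2 had no Sol peak within 1 kb, against 15.9% of all Dia peaks, which were screened against the longer list. Among the 24 strict Sol peaks, 17 were listed in neither EDL nor Quad. Of all strict Sol peaks, 77.6% were listed in EDL or Quad. In whole muscle, more nuclei of a fibre type and more accessible chromatin per nucleus cannot be told apart.

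The myosin genes were part of this contrast. Myh7, the slow myosin heavy chain, had its 2 Sol peaks at percentiles 38.1 (83 tags) and 28.0 (75 tags), with none in Dia, EDL or Quad. Both are low in the Sol list, with counting intervals of 15.2 to 57.9 and 1.16 to 50.6. Myl3, a slow and ventricular light chain, had 3 Sol peaks from its promoter to 2381 bp downstream, at percentiles 72.4, 75.1 and 68.2 (125, 130 and 117 tags), again with none in the other muscles. Myl2, the slow regulatory light chain, had 3 Sol peaks at 17.5, 53.9 and 47.1 upstream of the start. Dia had a peak of 42 tags at the first of them, below its first 20000.

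Other slow genes showed shared promoters with further Sol peaks. At Atp2a2, the slow calcium pump, the promoter stood at 69.4 in Sol and 67.4 in Dia, and 2 upstream peaks of Sol at 77.7 and 49.1 had no Dia peak within 1 kb. Casq2, the slow calsequestrin, had its promoter at 25.1 in Sol and 28.9 in Dia and 3 further Sol peaks in intron 1, the highest at 60.7. Tpm3, the slow tropomyosin, had a shared promoter at 91.2 in both muscles and a second Sol promoter peak at 40.4. Tnni1, slow troponin I, had 1 Sol peak at 66.9 (115 tags) and none in Dia, and Myoz2, a calcineurin-binding protein of the Z disc, had 7 Sol peaks and 3 Dia peaks. Slow troponin genes Tnnt1 and Tnnc1 and the pump inhibitor Pln had no peak in either list.

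**Figure D3:**
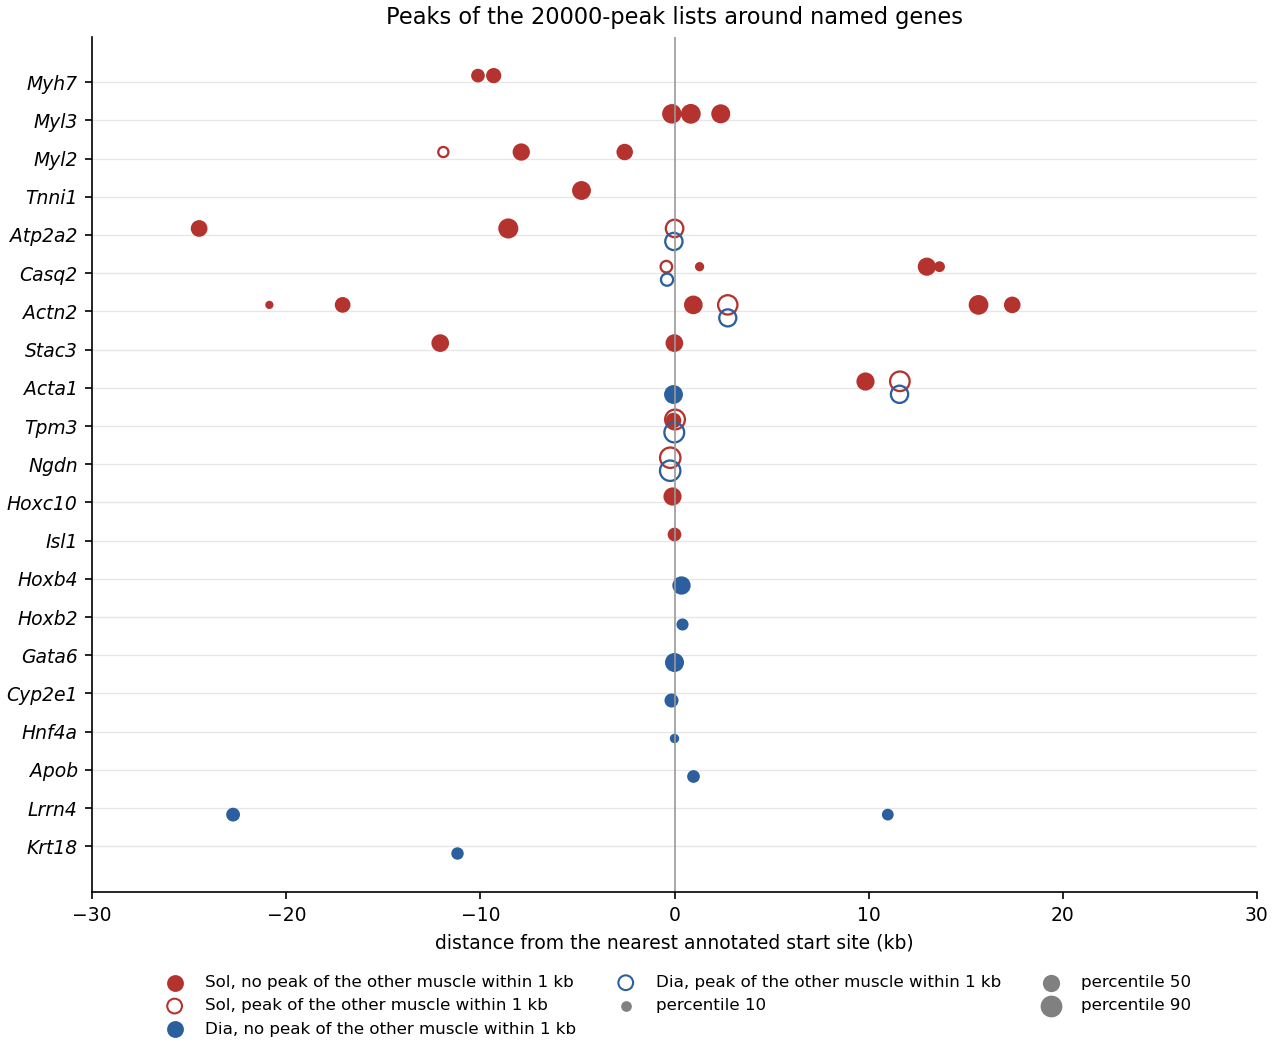
Peaks of the 20000-peak lists within 30 kb of the nearest annotated start (horizontal axis, kb) for named genes, Sol above and Dia below each line, with marker size for percentile and open markers where the other muscle has a peak within 1 kb. Myh7 and Myl3 carry filled Sol markers without Dia markers, whereas Ngdn, at percentile 97.3 in Sol and 97.6 in Dia, is alike in both.

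Genes of the fast sarcomere did not lean to Dia. Their summed peaks were 24 in Sol, 18 in Dia, 35 in EDL and 46 in Quad, with 7 genes higher in Sol and 3 in Dia among 14 with a peak, and Sol held 57.1% (42.2% to 70.9%). Of the 10 strict Sol peaks, 9 were listed in EDL or Quad, against 77.6% of all strict Sol peaks. Mylk2, the kinase of the fast light chain, had 2 Sol peaks and 0 in Dia, with 5 in EDL and 6 in Quad. Myh2, the myosin of fast oxidative fibres, had 1 Dia peak 7202 bp upstream at percentile 0.83 (45 tags), at the end of the list, and a Sol peak of 44 tags elsewhere upstream fell below the first 20000. Pvalb, the calcium buffer parvalbumin, had 1 Sol peak and 2 Dia peaks, and both Dia peaks overlapped a Sol peak of the whole list. No peak of either 20000-peak list was assigned to Myh1, Myh4 or the cardiac Myh6.

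General muscle genes had more peaks in Sol as well, in a list not fully separate from the others. It shares Mybpc1 with the slow sarcomere list and Ryr1 with the calcium handling list below. It also holds Actn2, named above, with 6 Sol peaks and 1 Dia peak. The 15 skeletal muscle markers summed to 48 peaks in Sol, 27 in Dia, 44 in EDL and 36 in Quad, with 10 genes higher in Sol and 1, myoglobin (Mb), in Dia. Sol held 64.0% of them (52.7% to 73.9%), and at 21 shared pairs the median percentile was 16.1 points higher in Sol, against -1.14 over all pairs. The level of an Acta1 region 11.6 kb downstream stood at 89.1 in Sol and 67.4 in Dia, and a shared Actn2 intron region at 86.9 and 65.6. Acta1, the skeletal actin, nevertheless had a promoter peak at 66.9 in Dia (100 tags), also listed in EDL and Quad, with no Sol peak within 1 kb. The promoters of Myod1, the myogenic factor (57.5), and Cav3, muscle caveolin (45.0), had Sol peaks without a Dia peak within 1 kb, and both genes had a peak in EDL and in Quad. The share of muscle nuclei in each pool was not measured, and its part in these differences was not tested.

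Genes of calcium handling and excitation-contraction coupling followed the same direction. Of 21 with a peak, 14 had more in Sol and none had more in Dia, with sums of 75 in Sol, 50 in Dia, 86 in EDL and 78 in Quad (Sol share 60.0%, 51.2% to 68.2%). Of the 75 Sol peaks 30 were strict, and of the 50 Dia peaks 0, against 23.1% and 15.9% over all peaks. Of the 30, 25 were listed in EDL or Quad, against 77.6% of all strict Sol peaks. A region in intron 2 of Cacna1s, the voltage sensor, stood at 77.0 in Sol (134 tags) and 25.7 in Dia (59 tags). Stac3, which couples the voltage sensor to calcium release, had its promoter and a second peak at 56.7 in Sol and none in Dia. The promoter peak of Ryr1, the release channel, stood at 71.1 in Sol and had no Dia peak within 1 kb, while a region in the first part of the gene was shared at 90.4 and 77.4. Junctophilin 1 (Jph1), which ties the tubule to the reticulum, had 8 Sol peaks and 5 Dia peaks. The strict Sol regions of this list were thus mostly listed in EDL or Quad, as strict Sol peaks were in general, unlike those of the slow sarcomere.

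Genes of the neuromuscular junction summed to 26 peaks in Sol and 18 in Dia, with 8 of 13 genes higher in Sol and 2 in Dia (Sol share 59.1%, 44.4% to 72.3%). The receptor-clustering protein Rapsn had 2 Sol peaks and 0 in Dia, and its partner kinase Musk 2 and 1. The interval includes 50%, but regions shared by both muscles count on both sides of it. Peaks without a partner numbered 11 in Sol and 3 in Dia.

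**Figure D4:**
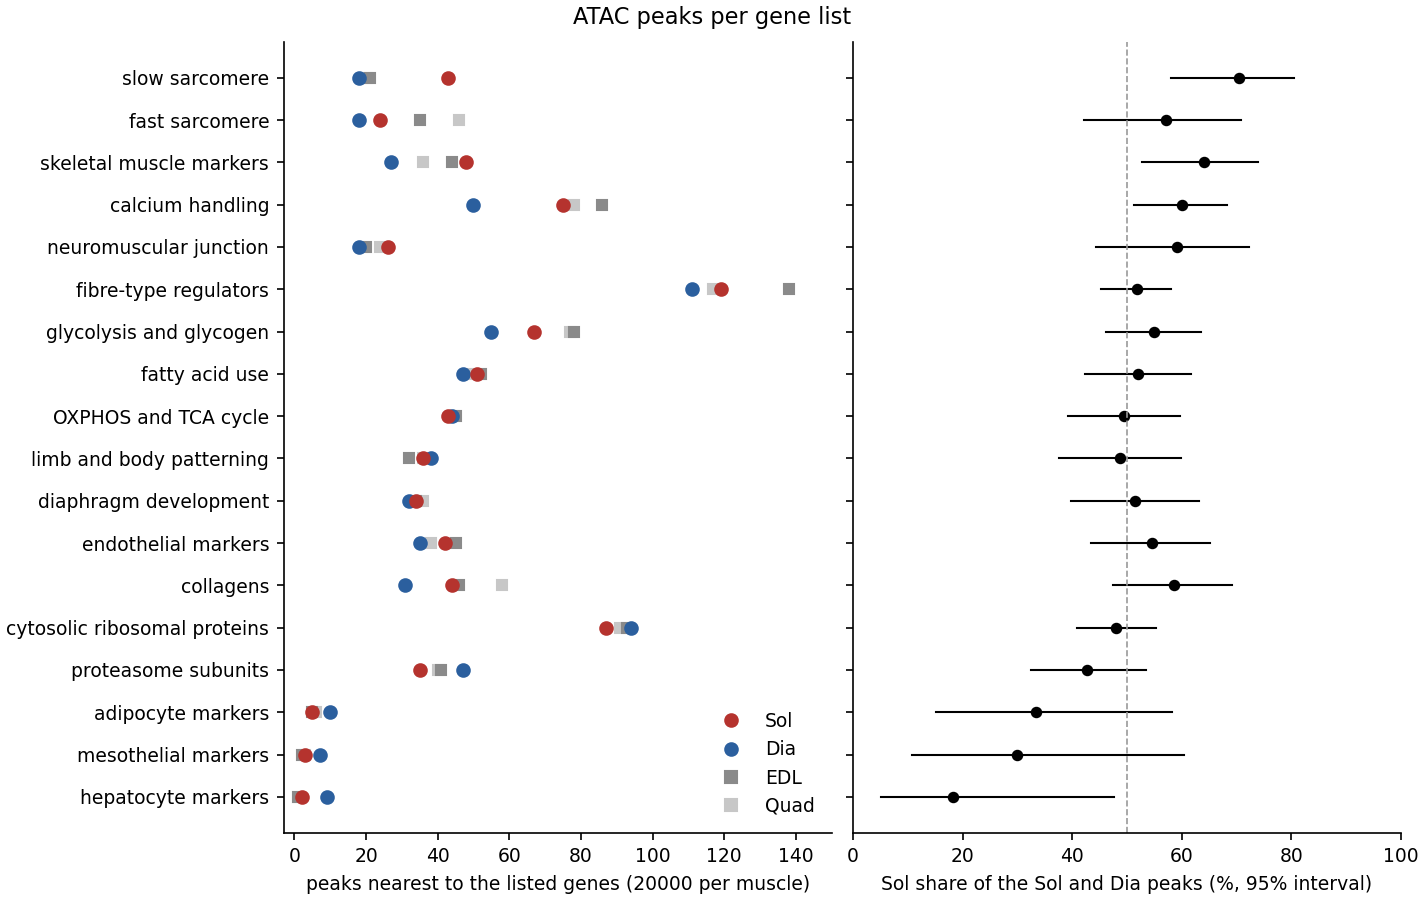
Summed peaks per gene list in Sol, Dia, EDL and Quad (left, 20000 peaks per muscle) and the Sol share of the Sol and Dia peaks with 95% intervals (right, %). The slow sarcomere list lies farthest towards Sol at 70.5%, and the hepatocyte list farthest towards Dia at 18.2%.

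Transcriptional regulators of fibre type were split between the muscles. Among 34 genes, 14 had more peaks in Sol and 7 in Dia, with sums of 119 and 111 (Sol share 51.7%, 45.3% to 58.1%). The whole lists held 185 and 115 peaks, a Sol share 4.52 points above that of all peaks. At their 74 shared pairs, 22 were at least 20 points higher in Sol and 8 in Dia, against 8.83% and 13.8% of all pairs. Only 17 of the 74 were promoters, and over all intragenic and intergenic pairs 16.4% and 17.2% were higher in Sol. Vgll2, a cofactor of TEAD factors, had 10 Sol peaks and 6 Dia peaks, Nfatc1, the calcineurin target, 5 and 2, and the oestrogen-related receptor Esrrg 6 and 4. Esrrg regions in introns stood at 65.1 and 25.7, and at 65.1 and 42.2, in Sol and Dia. Towards Dia, the deacetylase Hdac9 had 0 and 3 peaks, but each Dia peak had a Sol peak of the whole list within 1 kb. The coactivator Ppargc1a, a driver of mitochondrial genes, had 6 and 9 peaks, and 11 and 9 in the whole lists, so its direction turned with list length.

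For the metabolic lists, the excess of either muscle was within counting error. Oxidative phosphorylation and the citric acid cycle summed to 43 peaks in Sol and 44 in Dia, with 23 of 32 genes equal, 4 higher in Sol and 5 in Dia (Sol share 49.4%, 39.2% to 59.7%). Fatty acid genes summed to 51 and 47, with 9 higher in Sol and 5 in Dia (Sol share 52.0%, 42.3% to 61.7%). Genes of glycolysis and glycogen summed to 67 and 55, with 15 higher in Sol and 5 in Dia (Sol share 54.9%, 46.1% to 63.5%). The median percentile difference was between -0.15 and 1.37 points at the shared pairs of these lists. Ldhb, the lactate dehydrogenase subunit typical of oxidative tissue, had 2 Sol peaks and 1 Dia peak. The carriers of the inner mitochondrial membrane summed to 53 and 55.

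Housekeeping lists differed among themselves. Of 36 proteasome subunit genes with a peak, 10 had more peaks in Dia, near the 25.3% of all genes. In Sol 0 had more, against 22.7% of all genes. Their sums were 35 in Sol and 47 in Dia (Sol share 42.7%, 32.5% to 53.5%), and 45 and 51 in the whole lists, so the excess in Dia was within counting error. At 27 shared promoters of these genes the median difference was -5.43 points, against -2.31 over all promoter pairs. It was -8.25 points at 39 shared promoters of mitochondrial ribosomal proteins and -3.94 at 58 of cytosolic ribosomal proteins. At 26 shared promoters of oxidative phosphorylation and the citric acid cycle it was -0.52, and at 27 of mitochondrial carriers 0.148. Psmb5, a catalytic proteasome subunit, had a promoter peak at percentile 44.6 in Dia (73 tags), and the Sol peak near it held 53 tags, below the first 20000. Among 289 Zfp zinc finger genes with a peak, 61 had more peaks in Dia and 35 in Sol. Their Sol share was 47.9% (44.3% to 51.5%) and their promoter median -2.73 points, near that of all promoters.

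Patterning genes had few peaks. Promoters of the posterior genes Hoxc10 (percentile 60.7, 106 tags) and Hoxd10 (2.15, 59 tags) had a Sol peak and no Dia peak within 1 kb, and both had a peak in EDL. Hoxb4, of anterior position, had a Dia peak at 62.1 (93 tags) in its first exon, which was listed in Quad as well, and Hoxb2 a Dia peak at 19.0 (55 tags). The sums were 4 Sol and 5 Dia peaks for Hox groups 1 to 8 and 2 and 1 for groups 9 to 13, and Hoxa7, with a Sol peak at 47.1, and Hoxd9, with a Dia peak at 27.3 that overlapped a Sol peak below the first 20000, went the other way. These counts are too small to separate the muscles. The homeodomain genes Isl1 and Meis2 had peaks in single muscles. The Isl1 promoter stood at 28.0 in Sol (75 tags), and Meis2 had 3 Dia peaks at 61.4, 53.4 and 6.32, of which the first, at its promoter, overlapped a Sol peak of 49 tags below the first 20000. Limb and body patterning genes summed to 36 and 38 peaks, and genes of diaphragm development to 34 and 32. In the latter, 5 genes had more peaks in Sol and 5 in Dia, and at least 2 more were found for 3 in Sol and 1 in Dia. Among those higher in Dia were Gata4 and Gata6, with a Dia peak each and none in Sol.

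Markers of tissues around the diaphragm had more peaks in Dia, in small numbers. Of 9 hepatocyte genes, 6 had a peak, and all 6 had more in Dia, with sums of 2 in Sol, 9 in Dia, 1 in EDL and 1 in Quad (Sol share 18.2%, 5.14% to 47.7%). The promoters of Hnf4a, a liver transcription factor, and Cyp2e1, a liver cytochrome, stood at percentiles 6.32 (48 tags) and 30.3 (62 tags), and Apob, an apolipoprotein, had an intron peak at 22.4 (57 tags). The Alb peak lay 46.6 kb from the gene, and the 4 Dia peaks assigned to Apoa1 lay in introns of a neighbouring gene, of which 2 were shared with Sol. All were in the lower part of the Dia list. None of the 6 strict Dia peaks was listed in EDL or Quad, against 52.6% of all strict Dia peaks. Among 11 mesothelial markers, 3 genes had more peaks in Dia and 0 in Sol, with sums of 3 and 7, and Lrrn4 had 2 Dia peaks at 17.3 and 28.9. Among 9 adipocyte markers, 4 had more in Dia and 0 in Sol, with sums of 5 and 10. The intervals of the Sol share included 50% for both lists (10.8% to 60.3% and 15.2% to 58.3%). The whole peak lists, longer in Sol, held 7 Sol and 10 Dia peaks for hepatocyte, 6 and 7 for mesothelial and 7 and 11 for adipocyte markers. With them, the Sol share minus that of all peaks went from -31.8 to -16.0 points for hepatocyte markers. It went from -20 to -11.0 for mesothelial and from -16.7 to -18.3 for adipocyte markers. The part of liver, mesothelium or fat carried with the muscle in these values was not tested.

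For the remaining lists the Sol share had an interval that included 50%, with regions shared by both muscles counted on both sides. Endothelial markers summed to 42 peaks in Sol and 35 in Dia, fibroblast markers to 13 and 12, smooth muscle and pericyte markers to 6 and 6, satellite cell markers to 5 and 6, and tendon markers to 2 and 2. Schwann cell markers summed to 9 and 5, macrophage markers to 2 and 1, and lymphocyte markers to 1 and 1. Immediate early genes, which respond to handling and activity, summed to 93 and 92, genes of atrophy and glucocorticoid response to 68 and 60, clock genes to 41 and 40, and antioxidant genes to 27 and 28. Collagen genes summed to 44 and 31, with 13 higher in Sol and 6 in Dia, and potassium channel genes to 41 and 30. Peaks without a partner numbered 23 in Sol and 10 in Dia for collagens and 22 and 11 for potassium channels. The other way, they numbered 5 and 6 for antioxidant genes and 2 and 3 for satellite cell markers.

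The sequences of 1-sided peaks differed in motif content. The central 200 bp of each peak was searched on both strands for 10 motifs, and the same length 2 kb downstream served as background. The background windows were not matched to the peaks in base composition, and its part in the distance from background was not tested. Motifs were searched one by one, so overlapping letters could count for more than 1 of them. MEF2 sites were found in 430 of 5916 Sol peaks without a Dia partner (7.27%) and in 146 of 5914 Dia peaks without a Sol partner (2.47%), a difference of 4.80 points (4.03 to 5.58). The background was 3.19% in Sol and 3.55% in Dia, and over all peaks of the lists the share was 4.42% and 3.02%. Dia peaks thus lay below their background for this motif and Sol peaks above it. The E-box CAGCTG, bound by myogenic factors such as MyoD, was found in 25.0% of Sol and 18.6% of Dia peaks (difference 6.43, 4.95 to 7.92), with backgrounds of 10.1% and 9.05% and shares of 19.2% and 17.0% over all peaks.

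Smaller differences towards Sol were seen for several other motifs. The glucocorticoid response element ACANNNTGT was found in 7.71% and 5.55% (5.46% and 4.74% of all peaks), NFAT (TGGAAA) in 1208 of 5916 and 1065 of 5914 peaks, a difference of 2.41 points (15.7% and 15.3%), TEAD (GGAATG) in 13.5% and 11.5% (10.8% and 10.1%), and AP-1 (TGACTCA or TGAGTCA) in 8.89% and 7.03% (6.56% and 6.04%). Each of these intervals of the difference lay above 0, but the NFAT difference fell to 0.196 points when the whole peak was searched. For the oestrogen-related receptor site TCAAGGTCA the shares were 0.575% and 0.372% (0.330% and 0.285% of all peaks), a difference of 0.20 points (-0.05 to 0.46) that was not detectable at this depth. Its background was 0.575% in Sol and 0.676% in Dia, not below the peaks of either muscle.

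The insulator factor CTCF, GATA factors and the GC box leaned to Dia. CTCF sites were found in 1.57% of Sol and 4.51% of Dia peaks, a difference of -2.94 points (-3.57 to -2.33), with backgrounds of 0.186% and 0.101% and shares of 1.58% and 2.48% over all peaks. The GATA factor site AGATAAG was found in 1.45% and 2.57% (-1.12 points, -1.63 to -0.61), with shares of 1.22% and 1.59% over all peaks. Its background was 2.89% and 2.76%, above both, and among the 10000 highest peaks the difference was -0.041 points. The GC box GGGCGG was found in 16.7% and 21.0% (36.3% and 37.5% of all peaks), and the difference was -4.25 points, or -0.66 with promoters left out. Median GC content of the 1-sided peaks was 53.5% in Sol and 53.0% in Dia.

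**Figure D5:**
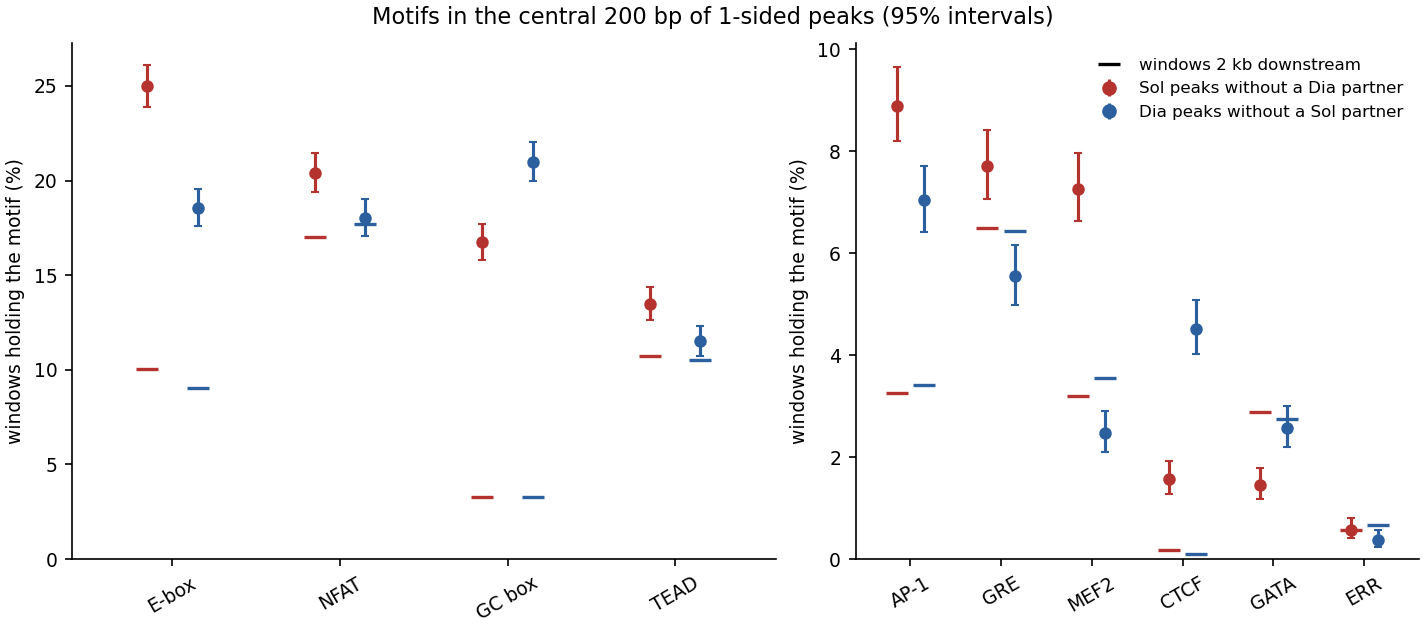
Share of windows holding each motif (%, vertical axes, with 95% Wilson intervals) in the central 200 bp of Sol peaks without a Dia partner and Dia peaks without a Sol partner, with short bars in the same colours for windows 2 kb downstream. MEF2, at 7.27% against 2.47%, and the E-box, at 25.0% against 18.6%, stand higher in Sol, and CTCF, at 1.57% against 4.51%, in Dia.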

How the data were processed

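ATAC-seq libraries of 4 muscles of wild-type mice were measured, 1 pooled library each, and Sol and Dia were compared. The authors pulverised frozen muscle, transposed nuclei with Tn5, sequenced 42-bp read pairs and aligned them to mm10 with Bowtie2. They kept 1 tag per position in HOMER, called fixed-width peaks per library and annotated each to the nearest transcription start (promoters from 1 kb upstream to 100 bp downstream). A Tn5 offset and removal of mitochondrial or repeat reads are not given in the sources used here. The deposited score is the authors' tag count scaled by library size, and it was used for ranks and inferred tags. Peaks were 206 bp (Sol) and 232 bp (Dia) wide, measured as end minus start, and no peak list of separate replicates was used.

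Peaks were ranked by score, the first 20000 were kept, and percentiles, overlaps of at least 1 bp, peaks per gene name and motif shares were computed in Python 3.11.15 with numpy 2.4.6, pandas 2.3.3, scipy 1.17.1 and matplotlib 3.10.9. The scripts were tested on simulated data and passed 30 of 30 checks. Counting intervals of percentiles come from 95% Poisson intervals of the inferred tags. Sequences are from the RefSeq FASTA of GRCm38.p6, and coordinates are 1-based. The text names the 15 genes with the largest difference each way, the 10 most shifted pairs and 10 highest strict peaks each way, list members whose counts differ, and the genes the study displays. Members, gene lists and motifs were chosen with earlier results of these data known. Other list lengths, overlap rules, percentile scales and filters were tried as alternatives. A further motif is not reported here.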

Additional observations from a re-analysis of the deposited data

How the results depend on the processing

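In total 122 results under another setting were compared for the main shares, counts, motifs and 5 gene lists, of which 75 kept their value within the error used; 46 moved and 1 turned. With all peaks of each list, 57.2% of Sol and 76.3% of Dia peaks were shared, the promoter share of 1-sided peaks was 9.63% and 17.98%, and 62.3% and 51.4% of them were listed in EDL or Quad. With the 10000 highest peaks, 75.2% were shared on both sides, the promoter shares were 20.1% and 57.4%, and the hindlimb shares 90.9% and 93.2%, so the Sol excess in hindlimb sharing was not seen among the highest peaks. With 50% reciprocal overlap, 60.3% were shared, the promoter shares were 21.6% and 27.4%, and the hindlimb shares 82.8% and 73.2%. With peaks within 500 bp counted as shared, 74.6% and 73.8% were shared, with promoter shares of 9.43% and 19.4%. Shifted pairs numbered 2901 towards Sol and 626 towards Dia with all peaks, 759 and 942 with the 10000 highest, and 2600 and 269 with percentiles of the whole list, which is longer in Sol. Genes with more peaks numbered 6021 in Sol and 2142 in Dia with all peaks, and 1756 and 2002 with the 10000 highest. The hepatocyte list turned with the 10000 highest peaks, to a Sol share 50 points above that of all peaks, but it then rested on 1 peak, in Sol.

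Motif differences (Sol minus Dia, points) with the 10000 highest peaks were 5.57 for NFAT, 3.91 for AP-1, 12.7 for the E-box, 3.67 for TEAD, -1.54 for CTCF, -0.041 for GATA and -26.5 for the GC box. With all peaks CTCF gave -2.20 and the GC box -6.17. Over the whole peak, NFAT gave 0.196 and the E-box 4.37, in strictly 1-sided peaks MEF2 gave 5.93 and NFAT 4.39, and without promoters the GC box gave -0.66. Of 117 further comparisons for the remaining lists, 110 kept their value within error. The cause of these changes was not tested, except that fewer peaks were used. No paired analysis was possible because each muscle has 1 library and no value comes from a test. Counting error at the end of the lists, 58 tags in Sol and 45 in Dia, limits how firmly a low peak can be called absent in the other muscle.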
